A study of Mus musculus with 12 samples.

Results

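The genes described here encode the proteins of the cytosolic ribosome. They were chosen by symbol alone: a name made of Rpl or Rps and a number, with a trailing a, l, x or y allowed, together with Rplp0, Rplp1, Rplp2 and Rpsa, and with the pseudogene names that carry -ps left out. The rule found 83 genes among the 55335 in the count tables, 32 of the small subunit and 51 of the large subunit. Of these, 81 passed the filter on low counts and were tested among 22635 genes, and Rpl10l and Rpl32l did not pass. RNA was read from muscle stem cells (MuSCs), the resident stem cells of skeletal muscle, sorted by flow cytometry for the green reporter from the hindlimbs of Pax7-ZsGreen mice aged 3 to 6 months. Cells of all 12 libraries therefore carry the Pax7-driven ZsGreen transgene, whose signal defined the sort. Cells were lysed directly after the sort (F), or cultured on coated plastic without compression for 2 days (2d-U) or 5 days (5d-U). In the remaining group (2+3d-C), cells were cultured for 2 days and then kept for 3 days under a flat device with pillars that pressed on them from above. Each group has 3 libraries, and the sources used here do not say which came from separate mice or cultures, so p-values measure only the spread between these samples, which may be technical.

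A ribosome is built from ribosomal RNA and a set of proteins present in nearly equal copy number, and the genes of these proteins are scattered over the genome. Their mRNAs typically begin with a terminal oligopyrimidine (TOP) run, a stretch of C and T at the first transcribed bases through which the kinase complex mTORC1 and the RNA-binding protein Larp1 control their translation and stability. Quiescent MuSCs are known as small cells with little RNA and slow protein synthesis, and both increase when the cells leave quiescence.

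The start windows below show what the members have in common in sequence. RefSeq (GRCm38.p6) held a start window for 61 of the 83 members and none was used for the other 22. The windows printed belong to members on which results below turn. Rpl4 is among the highest, Rpl6 and Rpl13a were higher in culture, and Rps21, Rps27l and Rpl39 were lower under compression. Rps27 and Rpl10a departed from the rest in a fit scaled on the members alone, which was added after the data had been seen. For Rps27 this held in 2d-U against F only, where its direction with scaling on all tested genes turned without F 1. Rpl3l is the striated-muscle paralog of Rpl3. Each line gives 30 bases on the coding strand, with the longest run of C or T in capitals.
Rpl4 (chr9:64173407-64173436, + strand): gcgtggCCTTCTCCTCTCCCCgtcatggtg
Rpl6 (chr5:121204521-121204550, + strand): cgctgccttagTTCTCTTTCCCgtcttgca
Rpl13a (chr7:45128720-45128749, - strand): acaagaCCTCCTCCTTTCCCaggcggctgc
Rps21 (chr2:180257399-180257428, + strand): ggaggcacgagctaCTTCCTTTCTgcgctc
Rps27l (chr9:66946058-66946087, + strand): cctccaCTCCTCTCCactcctccccgccgc
Rps27 (chr3:90213627-90213656, - strand): ctttcgCTCCTTTCCggcggtgacgacctc
Rpl39 (chrX:37085173-37085202, - strand): gttcttccggtcccggCCTTTCTCTTCTCC
Rpl10a (chr17:28328576-28328605, + strand): gctctgCCTTCTTTCCggtttccgcggcag
Rpl3l (chr17:24727846-24727875, + strand): tggtggggaggCCCCTTCCTaacctgcagg
Counting the annotated start as base 1, the run began at base 3 in Rpl13a, at base 27 in Rpl4 and at base 18 in Rpl10a, it crossed the start in Rps27, and it lay before the start in Rps27l. A run of at least 8 C or T between 25 bases before and 50 bases after the start was present in 80.3% of the 61 members and in 30.4% of 27025 genes. The run began within 5 bases of the start in 26.2% of members and 5.69% of all genes. Over the whole window of 300 bases and on both strands, CCGGAAG, the core of the Ets family motif, was found in 41% of members against 9.93% of all genes. CTTTCC stood in 52.5% against 29.3% and AAGATGGC, the core of the YY1 motif, in 8.2% against 3.19%. A match is a description of these letters and not a bound site, and CTTTCC overlaps the runs of C and T.

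How well reads can be assigned to a member differs widely, because ribosomal protein genes have many processed copies and host small RNA genes in their introns. Reads that aligned to several places, or that overlapped several genes, were not counted. In 80 members with a reference transcript, the median share of 75-base words that also occur in another annotated gene was 40.35%, and 31 members shared most of their words. Rps27l (4.39%), Rps21 (6.56%), Rpl39 (7.62%), Rpl8 (4.02%) and Rpl4 (8.47%) are nearly free of such sharing. Rpl24 (80.9%) and Rpl10a (76.7%) share most words, and 47% of the exon bases of Rpl24 and 35.4% of those of Rpl13a also belong to another gene. Counts of those members are uncertain, so 18 tested members with at most 20% shared words and at most 10% overlapped exon bases are also given alone below. A gene on the opposite strand cannot be told apart, since reads were counted without strand.

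The libraries held 12540745 to 62424851 reads on genes, and 15365 to 47398 genes were detected. In F 4, F 5, 5d-U 1 and 5d-U 6, 0.634 to 7.13 reads per kb fell on 2106 autosomal genes of families silent in muscle, such as olfactory receptors, and at most 0.220 in the other libraries. The scaling factors (TMM, trimmed mean of M values) of 2+3d-C 5 and 5d-U 6 were the lowest at 0.661 and 0.669, against up to 1.26 elsewhere, which raises normalized levels in those libraries. MuSC markers (Pax7, Myf5, Myod1, Vcam1, Itga7 and Cdh15) had summed counts per 1e+06 scaled reads (CPM) of 1631 to 2963 for F, 1961 to 2356 for 2d-U, 1786 to 2739 for 5d-U and 6791 to 11501 for 2+3d-C, and 3 of the 6 were called higher under compression than in 5d-U.

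Ribosomal protein transcripts took a small share of reads in freshly sorted cells, a larger share in both uncompressed cultures, and an intermediate share under compression. The members took 1.16%, 0.531% and 0.653% of gene reads in F 1, F 4 and F 5. In 2d-U the shares were 2.46%, 3.09% and 2.46%, and in 5d-U 1, 2 and 6 they were 2.84%, 2.81% and 3.95%. In 2+3d-C 4, 5 and 10 they were 0.793%, 1.43% and 1.501%. Neither uncompressed group overlapped F or 2+3d-C, whereas F and 2+3d-C overlapped through the high F 1 and the low 2+3d-C 4. The group means were 0.783% ± 0.336 (SD, n = 3) in F, 2.67% ± 0.361 in 2d-U, 3.20% ± 0.649 in 5d-U and 1.24% ± 0.389 in 2+3d-C. The mean share in 2+3d-C was 0.388 times that in 5d-U and 1.58 times that in F. Exact permutation tests of 3 against 3 libraries cannot go below p = 0.1, so no test is given for these shares. The widest 95% exact binomial interval of a share reached 0.00752 percentage points to each side and covers counting error only. In RNA from pooled cells, fewer cells of a type and less RNA per cell cannot be told apart.

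Both subunits followed the same order of groups. Small subunit members took 0.280% of reads in F, 0.980% in 2d-U, 1.30% in 5d-U and 0.404% in 2+3d-C (means of 3 libraries). Large subunit members took 0.503%, 1.69%, 1.90% and 0.837%. Processed copies with -ps in their names, which could take reads from their parents, received only 0.0160%, 0.0358%, 0.0455% and 0.0162%. The 78 protein genes of the mitochondrial ribosome took 0.182%, 1.04%, 1.20% and 0.313%.

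**Figure D1:**
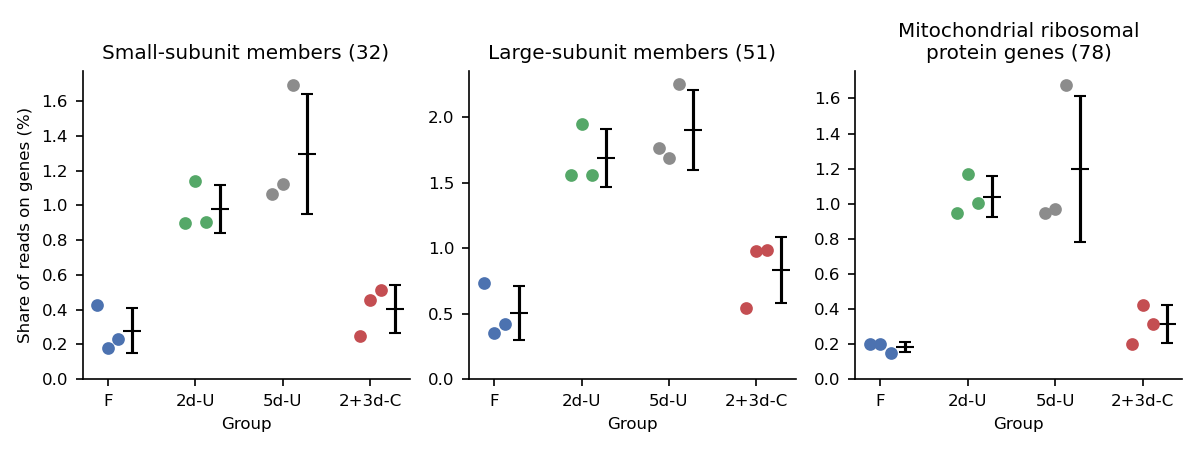
Share of gene reads (percent) on small subunit members, on large subunit members and on mitochondrial ribosomal protein genes in each library (points) by group, with the group mean and SD (bars). In all 3 panels every 2+3d-C library lies below every 2d-U and 5d-U library.

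Per gene and per length the members spanned a wide range of levels, given here as reads per kb of exon and per 1e+06 scaled reads (RPKM). The mean over the 12 libraries ran from 0.198 to 1107 RPKM among tested members, with a median of 92.5, and 40 members lay over 100. Under 6 RPKM lay 6 members. Rplp0, the base of the P stalk that recruits translation factors, was the highest member, followed by Rpl4, Rplp1, Rps15 and Rps27l. The lowest were Rpl39l, Rpl6l and Rpl3l, which are paralog copies, and Rpl24 and Rpl23a, members whose exons overlap another gene over 47% and 62.3% of their bases. The group mean was highest in 5d-U for 76 of the 81 members and lowest in F for 75. For 68 members the order was F, 2+3d-C, 2d-U, 5d-U from low to high, and 5d-U 6 was the highest library for 76 members. The 5 highest members of each library held 33.3% to 36.2% of member reads in 2+3d-C, against 23.1% to 24.99% for 5d-U, 26.4% to 29.6% for 2d-U and 27.1% to 33.6% for F. The ranges of 2+3d-C and of the uncompressed cultures do not overlap, so reads were spread less evenly over the members under compression.

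**Figure D2:**
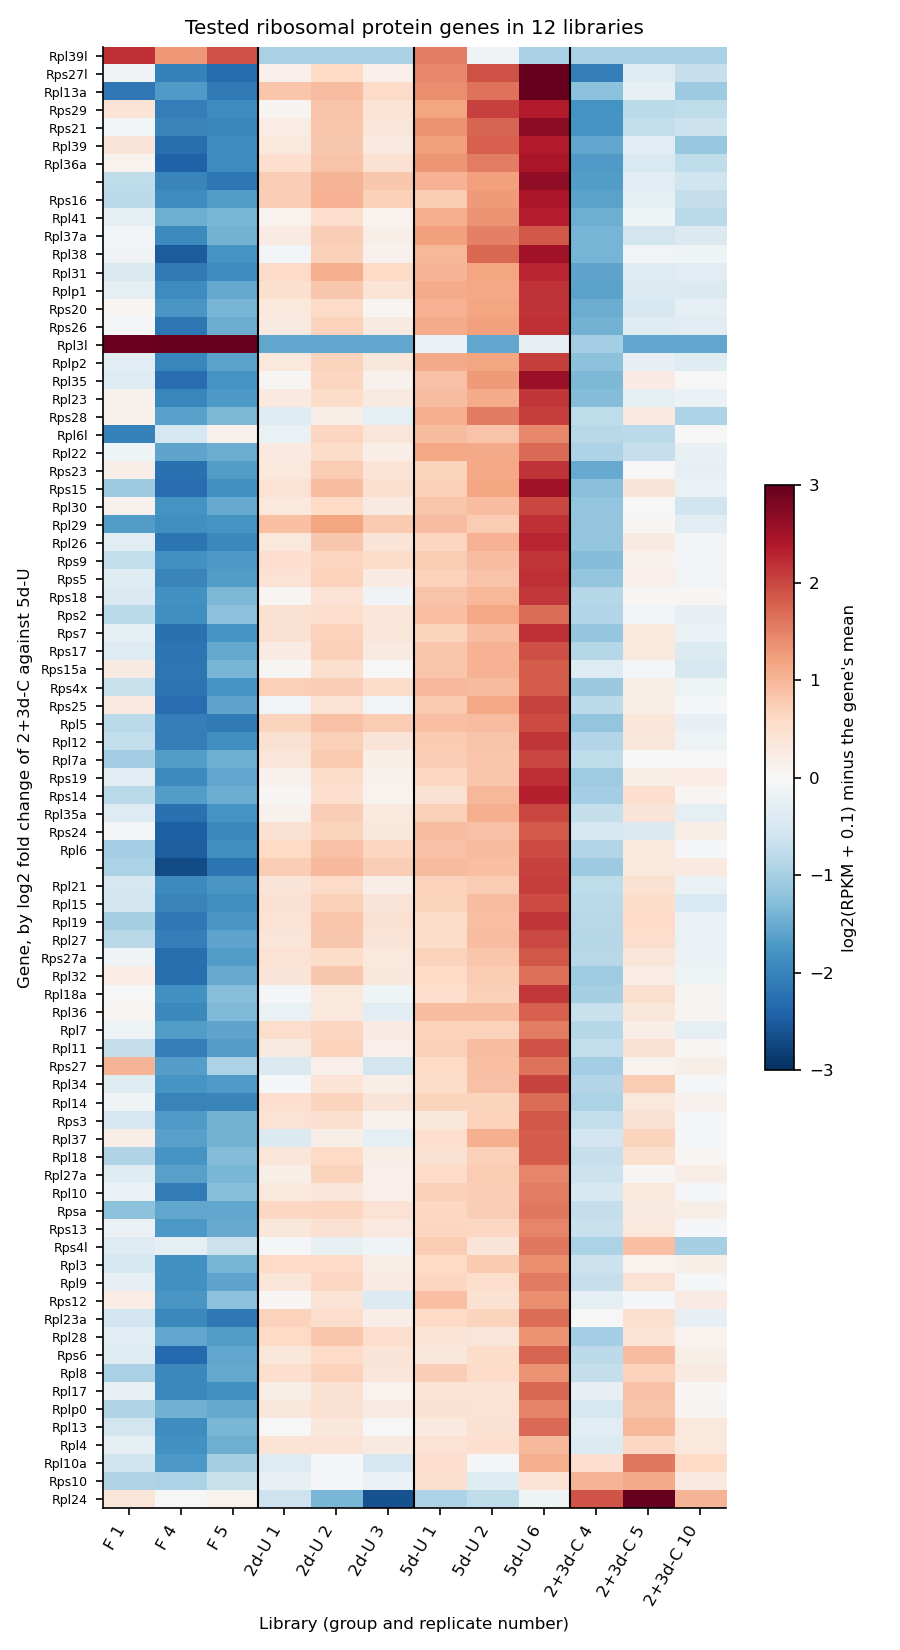
Level of the tested ribosomal protein genes, some left unnamed (a line per gene, ordered by its log2 fold change in 2+3d-C against 5d-U) in each of the 12 libraries (columns), as log2(RPKM + 0.1) minus the gene's own mean, so that colour shows change and not abundance and stops at 3 to either side. Most members are lowest in F 4 (68 of 81) and highest in 5d-U 6 (76 of 81).

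Compression was compared with 5 days of culture at the same total time. Of 81 tested members 37 were lower under compression than in 5d-U and 0 were higher, at a Benjamini-Hochberg adjusted p under 0.05 in edgeR's quasi-likelihood test, which is the meaning of "called" throughout. That is 45.7% of the members, where 13.4% of all tested genes were called lower and 9.14% higher. At an unadjusted p under 0.05, 62 members were lower and 1, Rpl24, was higher (30.1% and 13.4% of all tested genes). The median log2 fold change of the members was -1.53, against -1.05 over all tested genes and -0.06 over the 10816 genes that averaged 5 CPM or more. The libraries of both groups did not overlap in 62 members, all lower in 2+3d-C, and in Rpl24, the 1 that was higher (29.7% and 12.6% of all genes). The lower members comprised 18 of 32 of the small subunit and 19 of 49 of the large subunit, with median log2 fold changes of -1.60 and -1.41. Among the 18 members with few shared words, 10 were called lower and 0 higher, with a median of -1.70. The count fell to 17 without 5d-U 6 or without 2+3d-C 4, and to 24 without 2+3d-C 10. Over all tested genes, those called lower also went from 3042 of 22635 to 1727 of 27039, 2280 of 27025 and 2238 of 27891 in the same order. Without the 4 libraries with reads on silent families the members' median was -1.05. That fit leaves 1 library in 5d-U, whose spread is then taken from the other groups.

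Among the called members the largest decrease was in Rps27l (ENSMUSG00000036781.13, chr9:66946086-66949516), the p53-inducible paralog of Rps27. It stood at 609, 847 and 2262 RPKM in 5d-U and at 54.5, 174 and 140 RPKM in 2+3d-C. All compressed libraries lay well below all uncompressed ones, with 5d-U 6 far above its group. The log2 fold change was -3.34 ± 0.69 (SE), with an adjusted p of 0.0034. Rpl13a, a large subunit protein also known as a translational silencer in inflammation, had 24.97, 29.3 and 85.3 RPKM in 5d-U and 3.98, 8.16 and 4.40 RPKM in 2+3d-C. Its groups again did not overlap, and the log2 fold change was -3.08 ± 0.55 (adjusted p = 0.0013). Rps21 and Rps29, both small proteins of the small subunit, came next. Rps21 had 105, 140 and 267 RPKM in 5d-U and 12.1, 24.9 and 26.8 RPKM in 2+3d-C, a log2 fold change of -3.01 ± 0.61 (adjusted p = 0.0030). Rps29 had 129, 234 and 297 RPKM in 5d-U and 16.5, 32.2 and 33.5 RPKM in 2+3d-C, with -3.01 ± 0.66 (adjusted p = 0.0049). Rpl39, a short protein lining the exit tunnel, had 52.2, 77.0 and 117 RPKM in 5d-U and 7.49, 17.5 and 9.99 RPKM in 2+3d-C, with -2.82 ± 0.67 (adjusted p = 0.0083). In all 5 genes the highest compressed library stayed below the lowest uncompressed one.

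Rplp0 and Rpl4, the highest members, were not called. Rplp0 stood at 1283, 1271 and 2612 RPKM in 5d-U and at 658, 1699 and 996 RPKM in 2+3d-C, and the groups overlapped. The log2 fold change of Rplp0 was -0.62 ± 0.43 (adjusted p = 0.26), and that of Rpl4, a core protein of the exit tunnel, was -0.42 ± 0.44 (adjusted p = 0.46). A call that misses the threshold does not show that levels were equal. Across the 81 members, the log2 fold change had a Spearman correlation of 0.31 with exon length and 0.13 with the mean log2 RPKM. With the share of shared words it was 0.24, across the 79 tested members with a reference transcript. Members share their libraries, so these are descriptions of this comparison only.

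Compression was also compared with the 2-day culture from which it started. Here 2 members were higher and 4 lower in 2+3d-C, with a median log2 fold change of -0.62, against 0.00 over all tested genes. These are 2.47% and 4.94% of the members, beside 16.0% and 8.63% of all tested genes, so the calls do not set the members apart. The groups did not overlap in 41 members that were lower and 3 that were higher in 2+3d-C (17.4% and 18.1% of all genes), the latter being Rpl10a, Rpl24 and Rps10, which was named here after its values were seen. Among the lower members were Rps16, Rpl13a and Rpl29. Rps16, which contacts the peptidyl tRNA, had 149, 184 and 148 RPKM in 2d-U and 29.3, 74.5 and 54.6 RPKM in 2+3d-C, with a log2 fold change of -1.60 ± 0.50 (adjusted p = 0.031). The log2 fold change was -1.57 ± 0.52 for Rpl13a and -1.38 ± 0.46 for Rpl29, a heparin-binding protein of the large subunit. No member was called when any single 2d-U library was left out, 1 was called without 2+3d-C 4 or without 2+3d-C 10, 3 without F 4 or without F 5, and 14 without F 1. With library sizes unscaled, 41 members were lower and 1 higher. Of all 22635 tested genes, 3143 were then lower and 2540 higher, against 1954 and 3619 with scaling.

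Rpl10a and Rpl24 were the members called higher under compression than at 2 days. Rpl10a (ENSMUSG00000037805.15, chr17:28328471-28331033), a protein of the L1 stalk, had 43.6, 55.2 and 39.8 RPKM in 2d-U and 80.96, 171 and 85.9 RPKM in 2+3d-C. The log2 fold change was 1.28 ± 0.45 (adjusted p = 0.048). Rpl24, which forms a bridge to the small subunit, had 0.641, 0.342 and 0.0859 RPKM against 4.16, 9.60 and 2.21 RPKM (3.88 ± 1.14, adjusted p = 0.023). All compressed libraries lay above all 2d-U libraries in both genes, yet both genes share most of their words with other genes, and few reads of Rpl24 could be assigned.

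Few members were called between compressed cells and freshly sorted cells. Rpl10a, Rpl8 and Rpsa were called higher in 2+3d-C than in F and Rpl3l was called lower. These are 3.70% and 1.23% of the members, beside 1.94% and 4.47% of all tested genes. At an unadjusted p under 0.05, 30 members were higher and 2 lower, beside 1835 and 6493 of the 22635 tested genes. The log2 fold change was positive in 76 of the 81 members and in 8129 of all tested genes. The median log2 fold change was 0.94, against -0.76 over all tested genes and 0.18 over the genes with at least 5 CPM. Groups did not overlap in 14 members that were higher and in Rpl3l and Rpl39l, which were lower (8.79% and 18.3% of all genes). Rpl8, a protein near the peptidyl transferase centre, had 170, 87.4 and 114 RPKM in F and 203, 534 and 398 RPKM in 2+3d-C, with a log2 fold change of 1.61 ± 0.43 (adjusted p = 0.041). Rpsa, the laminin receptor precursor of the small subunit, had 37.9, 30.03 and 30.3 RPKM against 54.2, 107 and 100 RPKM, with 1.41 ± 0.39 (adjusted p = 0.047). For Rpl10a, F had 37.6, 17.1 and 28.3 RPKM, and the change was 2.02 ± 0.46 (adjusted p = 0.023). This comparison depended most on F 1: without it 54 members were called, and 0 were called without F 4, without F 5 or without 2+3d-C 5. Leaving out 2+3d-C 4 gave 8, leaving out 2+3d-C 10 gave 1, and leaving out any 2d-U library gave 2. Without the 4 libraries with reads on silent families, which leaves F 1 as the only F library, the median was 0.18. Calls over all tested genes also moved in the fit scaled on the members alone, described below. That fit called 677 genes with all libraries, 12132 without F 1, 116 without F 4, 119 without F 5 and 167 without 2+3d-C 5. Of the members it called 2 without F 1 and 0 in each of the other settings. Its totals are therefore not the background of the member counts above.

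Entry into culture was compared next. After 2 days 52 members were higher than in F and 2 were lower, that is 64.2% and 2.47% of the members beside 10.6% and 33.3% of all tested genes. The median log2 fold change was 1.48, against -1.63 over all tested genes and 0.08 over the genes with at least 5 CPM. Groups did not overlap in 67 members that were higher and 3 that were lower, Rpl3l, Rpl39l and Rpl24 (20.4% and 32.1% of all genes), of which the first pair was called. The called increases comprised 20 of 32 small subunit and 32 of 49 large subunit members, with medians of 1.48 and 1.54. Rpl13a rose the most, from 2.06, 2.85 and 2.09 RPKM in F to 16.9, 18.04 and 14.1 RPKM in 2d-U. The groups were far apart, at a log2 fold change of 2.80 ± 0.55 (adjusted p = 0.0019). Rpl29 rose from 11.7, 10.3 and 10.8 RPKM to 69.4, 85.5 and 64.1 RPKM (2.74 ± 0.49, adjusted p = 0.0011). Rpl6, a core protein of the large subunit, was also among the largest increases (2.37 ± 0.48). Without the 4 libraries with reads on silent families, which leaves F 1 as the only F library, 0 members were called and the median was 0.68. The number called in either direction was 21 without F 4 or without F 5, 30, 24 and 26 without 2d-U 1, 2 and 3, and 31 when testing was restricted to genes with at least 5 CPM.

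After 5 days of uncompressed culture 73 members were higher than in F and 1, Rpl3l, was lower. These are 90.1% and 1.23% of the members, beside 11.6% and 8.90% of all tested genes. The median log2 fold change was 2.48, against -0.41 over all tested genes and 0.25 over the genes with at least 5 CPM, and groups did not overlap in 77 members that were higher and in Rpl3l and Rpl24, which were lower (21.4% and 22.8% of all genes). Rpl13a (4.32 ± 0.58), Rps27l (3.59 ± 0.70), Rps15 (3.33 ± 0.58) and Rpl29 (3.22 ± 0.50) were among the largest increases, with adjusted p between 0.00025 and 0.0022. Rps15, at the head of the small subunit, went from 138, 60.6 and 82.8 RPKM in F to 480, 667 and 1688 RPKM in 5d-U. Without the 4 libraries with reads on silent families, 0 members were called and the median was 1.32, with 1 library left in each group.

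Between 2 and 5 days of uncompressed culture no member was called by edgeR, where 1.87% of all tested genes were called higher and 0.243% lower in 5d-U. At an unadjusted p under 0.05, 24 of 81 members were higher, beside 33.0% of all tested genes. DESeq2 called 2 members higher, Rps27l and Rps28, beside 9.86% of all tested genes. By both counts the members do not stand above the rest. Without 5d-U 1, edgeR called 1 member. The median log2 fold change was 0.92, against 1.13 over all tested genes. In 48 members all 5d-U libraries lay above all 2d-U libraries, and in 0 the reverse (31.7% and 5.40% of all genes). The members with the smallest p were Rps27l, Rps28, Rpl41, Rpl3l and Rpl13a. Rps27l had 250, 342 and 252 RPKM in 2d-U, below all 5d-U libraries given above, and its log2 fold change was 2.14 ± 0.66 (adjusted p = 0.087). For Rps28, a small protein of the mRNA exit region, the change was 1.76 ± 0.57 (adjusted p = 0.095).

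**Figure D3:**
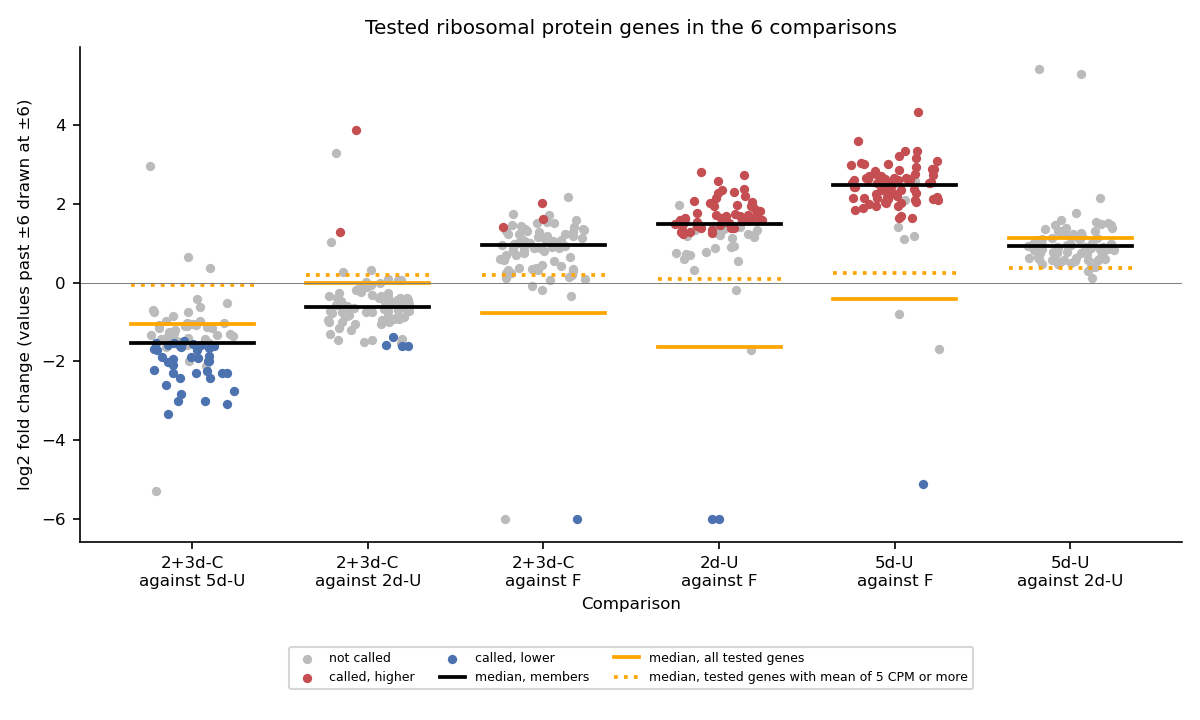
Log2 fold change of each tested ribosomal protein gene (points, coloured where called, values past 6 drawn at 6 to either side) in the 6 comparisons, with lines at the medians of the members, of all tested genes and of tested genes with a mean of 5 CPM or more. The members' median is 2.48 in 5d-U against F and -1.53 in 2+3d-C against 5d-U.

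Members with known separate roles were described whatever their change. The P stalk proteins, whose acidic tails activate translation GTPases, were described one by one. Rplp1 had 743, 761 and 1530 RPKM in 5d-U and 112, 258 and 251 RPKM in 2+3d-C, with a log2 fold change of -2.29 ± 0.51 (adjusted p = 0.0056). Rplp2 had 150, 154 and 288 RPKM against 28.9, 57.4 and 52.6 RPKM, with -2.09 ± 0.49 (adjusted p = 0.0074). Both fell without overlap between the groups, while Rplp0, the anchor they bind, had the overlapping values given above. The difference between these genes was not tested. Rpl5 and Rpl11, which with the 5S ribosomal RNA can bind Mdm2 and so stabilize p53, had changes of -1.57 ± 0.50 (adjusted p = 0.035) and -1.28 ± 0.47 (adjusted p = 0.064), so only Rpl5 was called.

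Rps6, the small subunit protein phosphorylated by S6 kinase, was higher in 2d-U (250, 294 and 256 RPKM) than in F (152, 39.0 and 66.0 RPKM), with 1.64 ± 0.57 (adjusted p = 0.034). Its values in 2+3d-C were 113, 372 and 220 RPKM and overlapped those in 5d-U, with -0.75 ± 0.55 (adjusted p = 0.29). Rps19, the gene most often mutated in Diamond-Blackfan anaemia, had -1.53 ± 0.54 (adjusted p = 0.055) in 2+3d-C against 5d-U. Rps27a, which is made as a fusion with ubiquitin, had -1.36 ± 0.54 (adjusted p = 0.081), and neither was called. Rpl22, an RNA-binding protein that is not needed for translation as such, fell from 48.8, 47.4 and 70.2 RPKM in 5d-U to 11.4, 13.5 and 18.6 RPKM in 2+3d-C (-1.94 ± 0.45, adjusted p = 0.0072). Rpl38, known for its effect on translation of Hox mRNAs in the mouse embryo, had -2.30 ± 0.63 (adjusted p = 0.018). Rpl41, the shortest ribosomal protein, had -2.41 ± 0.50 (adjusted p = 0.0036). In both of these the compressed libraries all lay below the 5d-U libraries.

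Whether single members moved apart from the class was measured by scaling libraries on the members alone, so that a log2 value is a change relative to the other members. This fit was added after the data had been seen. In 2+3d-C against 5d-U, 3 members were higher and 3 lower relative to the class (17.1% and 3.30% of all tested genes on that scale). Rpl10a was higher by 1.85 ± 0.41 (adjusted p = 0.0086), Rpl24 by 4.43 ± 1.20 (adjusted p = 0.021) and Rpl13 by 1.01 ± 0.33 (adjusted p = 0.047). Rps27l was lower, at -1.78 ± 0.40 (adjusted p = 0.0087), as were Rps29 (-1.54 ± 0.49, adjusted p = 0.042) and Rps21 (-1.48 ± 0.45, adjusted p = 0.036). Leaving out each library in turn kept the call of Rps27l in 12 of 12 cases and of Rpl10a in 11, but those of Rps21, Rps29 and Rpl13 in 2. Without the 4 libraries with reads on silent families no member departed from the class in this comparison. In 2+3d-C against 2d-U, Rpl10a (1.98 ± 0.41) and Rpl24 (4.56 ± 1.20) were higher relative to the class and 0 were lower (18.1% and 3.26% of all tested genes). In 2+3d-C against F (0.0177% and 2.97% of all tested genes) and in 5d-U against 2d-U (0.00442% and 0%), 0 members departed from it. In 2d-U against F, 6 members were lower relative to the class and 1 was higher (56.2% and 0.636% of all tested genes). The lower members were Rps27 (-1.56 ± 0.45), Rps4l (-1.56 ± 0.62), Rpl37 (-0.97 ± 0.37), Rpl24, Rpl3l and Rpl39l. Only 1 member was lower when any single 2d-U library was left out, and 2 without F 4 or without F 5. With any other library left out, 4 to 7 were lower. In 5d-U against F, Rps27l was higher (1.19 ± 0.39), a call that held in 1 of 12 cases with a library left out, and Rpl3l and Rpl24 were lower (0.212% and 30.4% of all tested genes). Rpl13 and Rpl37 were named here after their values were seen.

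**Figure D4:**
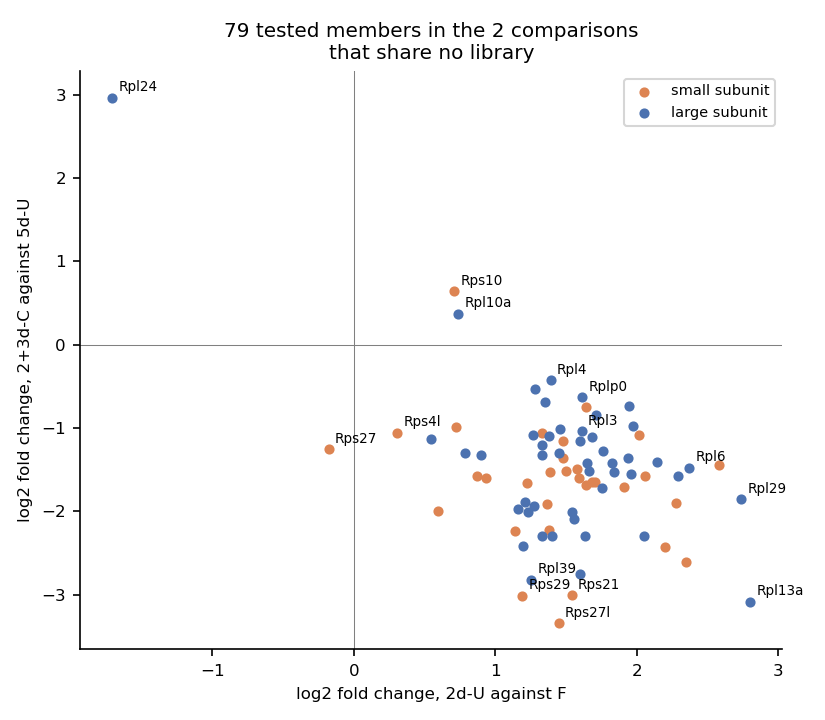
Log2 fold change in 2+3d-C against 5d-U (vertical) and in 2d-U against F (horizontal), comparisons that share no library, of 79 tested members coloured by subunit, with Rpl3l and Rpl39l left out and selected members named. Nearly all members are positive on the horizontal axis and negative on the vertical axis, and across all 81 the Spearman correlation is -0.07.

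Members with a tissue-restricted paralog allowed copies to be set beside their parents. Rpl3l, which replaces Rpl3 in mature striated muscle, had 86, 199 and 303 reads in F, 0 in all 2d-U libraries, 6, 0 and 5 reads in the 5d-U libraries and 4, 0 and 0 reads in the 2+3d-C libraries. F lay above every cultured library, and with a floor of 3 reads per library 2d-U stood at least 73.3-fold lower. Rpl3 went the other way, from 98.7, 40.4 and 53.9 RPKM in F to 213, 213 and 163 RPKM in 2d-U (1.61 ± 0.43, adjusted p = 0.011). Mature myofiber markers summed to 36.7 to 2481 CPM for F, 49.6 to 89.7 for 2d-U, 172 to 2453 for 5d-U and 63.0 to 177 for 2+3d-C, and Myh1, Myh2 and Myh4 were at 0 in 2d-U. Their part in the result was not tested. Rpl39l, the copy of Rpl39 known from testis, had 16, 10 and 21 reads in F, 0 in all libraries of 2d-U and 2+3d-C and 9, 2 and 0 in 5d-U. Its level was at least 6.31-fold lower in 2d-U than in F. The 10 and 21 reads in F and the 9 in 5d-U fell in F 4, F 5 and 5d-U 1. Those libraries carry reads on silent families, for which the bound is not corrected. Rpl10l, another germ line copy, had 0, 11 and 2 reads in F and 0 elsewhere, and the 11 reads fell in F 4, which also carries reads on silent families.

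Rps27 and Rps27l, whose proteins are nearly alike, were both highest on average in 5d-U, and the difference between them was not tested. Rps27 had 103, 16.1 and 26.4 RPKM in F, 37.6, 56.1 and 34.6 RPKM in 2d-U, 76.3, 94.9 and 156 RPKM in 5d-U and 25.04, 54.9 and 57.6 RPKM in 2+3d-C. With scaling on all tested genes it was called in none of the 6 comparisons, and in 2+3d-C against 5d-U it had -1.25 ± 0.61 (adjusted p = 0.13). Relative to the members alone it was lower in 2d-U against F, as given above. Rps27 shares 60.7% of its words with other genes, and its direction between 2d-U and F turned positive without F 1 and with library sizes unscaled. Rps4l, an autosomal copy of the X-linked Rps4x, had 10.2 to 61.7 RPKM and was called in no comparison with scaling on all tested genes. It too was lower relative to the members alone in 2d-U against F. Rps4x itself fell from 291, 286 and 521 RPKM in 5d-U to 68.9, 166 and 133 RPKM in 2+3d-C (-1.58 ± 0.47, adjusted p = 0.027). Rpl6l stayed at or below 1.01 RPKM in all libraries.

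**Figure D5:**
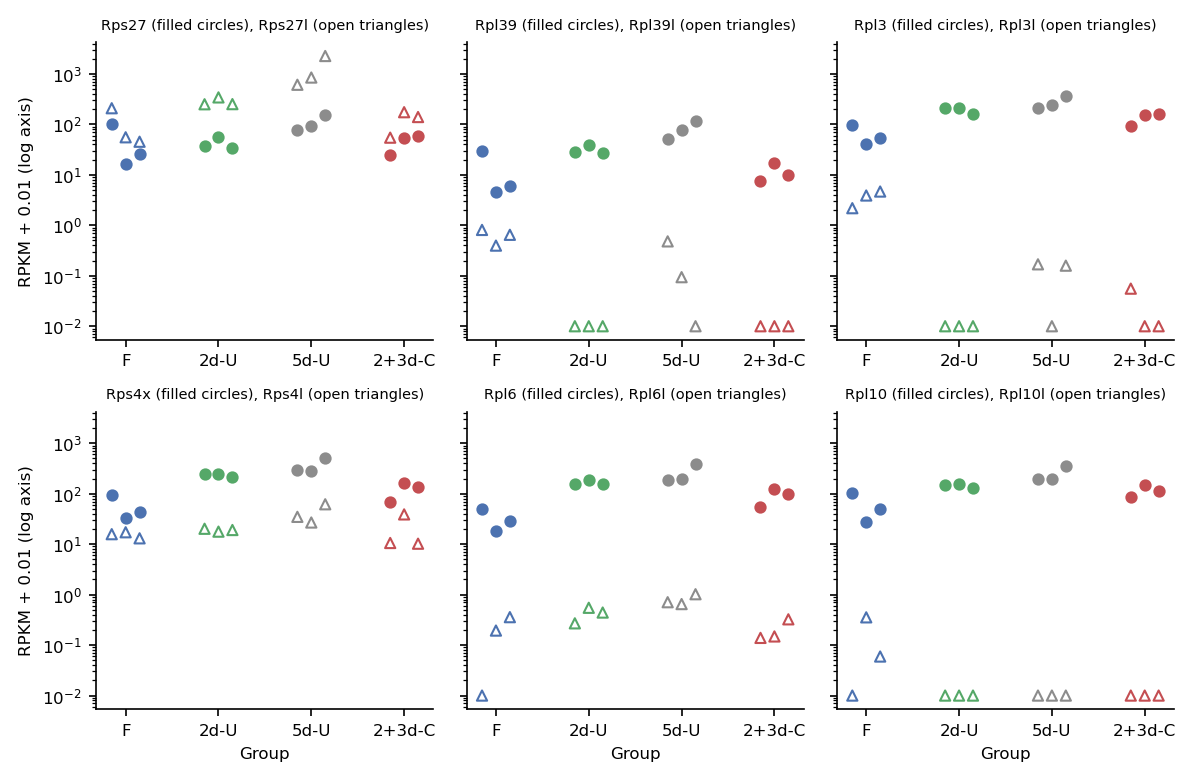
Level (RPKM + 0.01, log axis) of 6 parent genes (filled circles) and their paralogs (open triangles) in each library by group, with values of 0 drawn at 0.01. Rpl3l and Rpl39l lie higher in F than in 2d-U and 2+3d-C, and Rps27l reached 2262 RPKM in 5d-U.

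Genes around the ribosome were read from lists chosen with the members. The protein genes of the mitochondrial ribosome, a separate particle with its own subunits, had 56 of 77 tested lower and 0 higher under compression than in 5d-U, with a median of -2.24. That is 72.7% of the list, beside 13.4% of all tested genes, and 69 were higher in 2d-U than in F (89.6%, beside 10.6%). Mrpl34 (-7.53), Mrpl18 (-5.002) and Mrpl42 (-4.61) had the smallest p. Of 49 genes of ribosome assembly and RNA polymerase I, 12 were higher and 2 lower under compression than in 5d-U, with a median of 0.66. The 12 are 24.5% of the list, where 9.14% of all tested genes and 18% of those with at least 5 CPM were called higher. In 2d-U against F, 21 were higher and 1 lower. These are 42.9% and 2.04% of the list, beside 10.6% and 33.3% of all tested genes and 21.6% and 24.5% of those with at least 5 CPM. Gnl2, a GTPase of large subunit assembly (1.89 ± 0.37), Rrs1 (1.85 ± 0.41) and Rrp9 (1.73 ± 0.38) were among those higher in 2+3d-C, and Wdr12 was lower (-1.25 ± 0.34). Whether this list differed from the ribosomal protein genes was not tested.

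Of 20 other mRNAs with a TOP run, 4 were lower and 0 higher under compression than in 5d-U, with a median of -0.77. The 20% called lower lies near the 13.4% of all tested genes and the 19.5% of those with at least 5 CPM. Eef1g (-1.48 ± 0.36) and Npm1 (-1.32 ± 0.42) were lower, while Eef1a1, the elongation factor and the most abundant of them, had 0.03 ± 0.39. Of 6 cytosolic ribosomal protein genes whose names lie outside the rule, Fau, made as a fusion of a ubiquitin-like protein with a small subunit protein, was lower (-1.72 ± 0.51, adjusted p = 0.027), and 3 were higher in 2d-U than in F. Of 7 tested host transcripts of small nucleolar RNAs, Zfas1 was lower in 2+3d-C (-2.12 ± 0.55). The -ps pseudogenes had 4 of 82 tested lower and 0 higher under compression than in 5d-U, with a median of -1.49, and their 4.88% called lower is under the share of all tested genes. Among 22 genes of mTORC1, Larp1 and Myc, 5 were higher and 1 was lower after compression, against 5d-U. These are 22.7% and 4.55%, beside 9.14% and 13.4% of all tested genes and 18% and 19.5% of those with at least 5 CPM. The share called higher lies near that of the genes with at least 5 CPM. Myc, a transcription factor known to drive ribosomal genes, had a group mean of 488 RPKM in F, 161 in 2d-U, 75.2 in 5d-U and 2032 under compression, a log2 fold change of 4.76 ± 0.58 against 5d-U (adjusted p = 7.7e-05). Sesn2, an inhibitor of mTORC1, was higher (2.42 ± 0.56) and Akt1s1, its subunit PRAS40, was lower (-2.23 ± 0.43).

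Markers of other cells in muscle moved with the same groups. Endothelial markers summed to 927 to 1338 CPM for F, 2.72 to 6.41 for 2d-U, 2.06 to 27.7 for 5d-U and 204 to 229 for 2+3d-C, and 5 of 6 were higher under compression than in 5d-U. Fibroadipogenic markers summed to 2380 to 9889, 74.4 to 155, 75.2 to 108 and 660 to 745 CPM in the same order, with 4 of 6 higher in 2+3d-C. Erythroid markers summed to 160 to 672, 0.117 to 0.199, 0.104 to 0.391 and 27.3 to 317 CPM, with 5 of 5 higher. These 3 lists stand high where the members stand low. Smooth muscle and pericyte markers (775 to 1024, 62.6 to 87.6, 60.8 to 730 and 269 to 421 CPM) had 4 of 6 higher under compression than in 5d-U, and glial markers (185 to 256, 0 to 1.75, 0.522 to 7.90 and 71.7 to 133 CPM) had 2 of 4. Immune markers (414 to 1084, 0.664 to 2.43, 1.53 to 118 and 5.47 to 76.6 CPM) had 1 of 8 lower, and myofiber markers had 2 of 7 lower in 2+3d-C. In 2d-U against F every gene of these 7 lists was lower. At 0 in all 2d-U libraries were Ptprc, Cd79a, Itgam, Lyz2, Adgre1, Pdgfra, Lum, Rgs5, Kcnj8, Myh11, Pdgfrb, S100b, Sox10 and Alas2, and at 0 in 2+3d-C were Ptprc, Cd3e and Adgre1. Their part in the results for the ribosomal protein genes was not tested.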

How the data were processed

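The 12 libraries were made from TRIzol lysates with SMART-seq v4 cDNA. Per the file headers, the authors counted reads per gene with featureCounts 1.6.4 on GENCODE vM23 (mm10) without strand, inside nf-core/rnaseq, and the deposited values are raw read counts. One edgeR 4.0.16 quasi-likelihood model (R 4.3.3, limma 3.58.1) covered all 12 libraries and 4 groups after filterByExpr and TMM, with Benjamini-Hochberg adjustment over 22635 genes. RPKM used the deposited exon lengths and TMM-scaled library sizes. The word search used GENCODE vM21 transcripts. Genes were called at an adjusted p under 0.05. The fit was tested on simulated counts. The members and lists were chosen with earlier results of these data known. Members were named by paralog, level, size of change in each comparison and role. Alternatives were DESeq2 1.42.0, other scalings and filters, pairwise fits, a replicate block, subtraction of reads expected from silent families, and each library left out. A further table of the whole series repeated the same counts in all 12 columns. Same-numbered libraries had correlations of -0.257 to 0.0263 in their deviations from group means, so numbers were not used to pair samples. Results of some members by name are not reported here, although all members enter the counts and medians.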

Additional observations from a re-analysis of the deposited data

How the results depend on the processing

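No median of the members changed sign in the alternatives for which it was taken, while the number of called members was less stable. For the replicate block, medians were taken only in 2+3d-C against F and in 5d-U against 2d-U. With library sizes unscaled by TMM, 61 members were called in 2+3d-C against 5d-U, 42 in 2+3d-C against 2d-U and 2 in 2+3d-C against F. Calls over all 22635 tested genes moved too. They went from 2068 higher and 3042 lower to 1693 and 3446 in the first of these comparisons. In the second they went from 3619 and 1954 to 2540 and 3143, and in the third from 438 and 1011 to 145 and 1209. DESeq2 called 12 in 2+3d-C against 2d-U, 9 in 2+3d-C against F and 2 in 5d-U against 2d-U. Of all tested genes it called 4553 higher and 2720 lower, 795 higher and 3188 lower, and 2231 higher in the same order. With no filter on low counts the counts in these 3 comparisons were 3, 9 and 1, and with only the compared groups fitted they were 18, 2 and 1. With genes of at least 5 CPM, 1 was called in 2+3d-C against F and 31 in 2d-U against F. Subtracting the reads expected from silent families gave 10 in 2+3d-C against 2d-U, beside 3427 higher and 2217 lower of 18698 genes. Members with few shared words gave 0 in 2+3d-C against 2d-U and 2 in 2+3d-C against F. Without the 4 libraries with reads on silent families, an alternative chosen after seeing the data like that of few shared words, 6 were called in 2+3d-C against 5d-U, 0 in 2+3d-C against F, 2d-U against F and 5d-U against F, and the median in 5d-U against F was 1.32. The cause was not tested. Without TMM the median of all tested genes moved by -0.16 in 2+3d-C against 5d-U, -0.48 in 2+3d-C against F, -0.28 in 5d-U against F and -0.48 in 5d-U against 2d-U, and with DESeq2 by -0.39 to 0.15. The members' median less that of all genes in 2+3d-C against 5d-U ran from -1.45 to 0.90 over all alternatives but the replicate block. It so took either sign, and the cause was not tested.

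Leaving out each library in turn gave 17 to 46 called members in 2+3d-C against 5d-U (median -1.81 to -1.04), 0 to 14 in 2+3d-C against 2d-U (-0.90 to -0.38), 0 to 54 in 2+3d-C against F (0.63 to 1.39), 21 to 74 in 2d-U against F (1.20 to 2.13), 54 to 75 in 5d-U against F (2.00 to 2.69) and 0 to 1 in 5d-U against 2d-U (0.43 to 1.12). Calls over all tested genes moved as well. In 2+3d-C against 5d-U they were 1338 higher and 1727 lower of 27039 without 5d-U 6. Without 2+3d-C 5 they were 2222 and 3045 of 27911. In 2+3d-C against 2d-U they were 2504 and 1385 of 27091 without 2d-U 1, and 3555 and 2096 of 27750 without F 1. The mean share of reads on the members ran from 0.592% to 0.909% for F, 2.46% to 2.78% for 2d-U, 2.83% to 3.39% for 5d-U and 1.11% to 1.46% for 2+3d-C. Members apart from the class numbered 1 to 8 in 2+3d-C against 5d-U and 1 to 8 in 2d-U against F. Members named by change were checked for sign only in the comparison that named them. Those named by paralog, level or role were checked in 2+3d-C against 5d-U and 2d-U against F. Signs changed there in 4 cases, none called. Rps27 in 2d-U against F was 0.056 without TMM and -0.59 to 0.92 with a library left out, the highest without F 1. Rpl3l, without the 4 libraries, was 3.26 in 2+3d-C against 5d-U and 0 in 5d-U against 2d-U. Over all members, 26 changed sign in 2+3d-C against F without the 4 libraries and 14 without TMM. In 2+3d-C against 2d-U 8 did so without 2+3d-C 4, and in 5d-U against 2d-U 7 without TMM.

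Library numbers were shared by few groups, and the pairing check gave no sign that they pair samples. With the replicate number as a block, 3 members were called in 2+3d-C against F (median 1.42) and 0 in 5d-U against 2d-U (median 0.33), the comparisons whose groups share 2 numbers. In the others, whose groups share at most 1, the same fit called 0 members in place of 37 in 2+3d-C against 5d-U, 0 in place of 6 in 2+3d-C against 2d-U, 0 in place of 54 in 2d-U against F and 1 in place of 74 in 5d-U against F. Of all tested genes it called 728 higher and 3098 lower in 2+3d-C against 5d-U. That fit keeps 2 residual degrees of freedom.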
